A study of Mus musculus with 12 samples.

Results

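The imprinted growth network genes described here are H19, Peg3, Mest, Plagl1, Dlk1, Meg3, Cdkn1c, Grb10, Ndn and Zim1. These 10 genes were taken by name from the 22630 genes of each deposited table, and each name matched 1 row. They were chosen by way of the measured levels of Igf2, an imprinted growth factor gene that was high in some plus-dox tumors and not in others, so Igf2 is given throughout as the point of reference and is no finding here. RNA had been sequenced from 12 whole, unsorted subcutaneous tumors grown in immunocompromised NSG mice from KCip53-1 cells. That line was established from a single primary pancreatic tumor of a mouse with the alleles Ptf1a-Cre, TREp53R270H and R26rtTa/rtTa and had been sorted for the dsRed reporter, so all 12 tumors carry the transactivator rtTa and the inducible p53R270H transgene. Cre was driven by Ptf1a in the pancreatic epithelium. Doxycycline (dox) switches on p53R270H, a mutant form of the tumor suppressor p53.

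The 4 no-dox tumors came from mice that never received dox. The 4 plus-dox tumors came from mice given dox for 36 days, and the 4 off-dox tumors from mice given dox for 33 days and then none for 3 days. Dox was given at 0.2 g/l in drinking water with 5% sucrose, and the hosts were 8 to 10 weeks old. Each mouse carried 2 tumors, and the labels do not tie a tumor to its mouse. Every test below treats tumors as independent, so p is too small wherever a pair of them grew on the same host, and the spread it measures is that between tumors of 1 cell line. NSG mice lack T, B and NK cells but keep fibroblasts, endothelium, muscle, fat and macrophages, whose RNA is counted together with that of the tumor cells.

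An imprinted gene is transcribed mainly from the copy inherited from one parent, the other copy being held silent by DNA methylation set in the germline or by a non-coding RNA. Many such genes act on growth before birth, are switched off together in most tissues after birth, and are known as a co-regulated network in which the zinc finger factor Plagl1 (Zac1) and the long non-coding RNA H19 act on other members. In the mouse, H19, Meg3, Cdkn1c, Grb10 and Zim1 are expressed mainly from the maternal copy, and Igf2, Peg3, Mest, Plagl1, Dlk1 and Ndn mainly from the paternal copy. H19 and Igf2 are neighbors that share enhancers and use them from opposite parental copies, so that one copy makes H19 and the other Igf2. The tables count both parental copies together, and no allele can be read from them.

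The members lie in a few clusters. In the deposited mm9 coordinates, H19 lies at chr7:149761437-149764051 and Igf2 at chr7:149836673-149846940, with 72621 bp between them, and Cdkn1c lies in the same imprinted region at chr7:150644244-150646955. Peg3 (chr7:6658671-6683130) and Zim1 (chr7:6628154-6649143) are neighbors 9527 bp apart, and Ndn lies elsewhere on the same chromosome at chr7:69493163-69494813. Dlk1 (chr12:110691033-110701546) and Meg3 (chr12:110779206-110809939) are 77659 bp apart. Mest lies at chr6:30683506-30698410, Plagl1 at chr10:12810594-12851501 and Grb10 at chr11:11830502-11937423.

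MicroRNAs of 3 of the 11 transcripts were looked up by name in RefSeq, and the other transcripts were not searched for any. H19 is the precursor of miR-675, and the introns of Mest and Igf2 hold miR-335 and miR-483. Their mature sequences, from RefSeq on build GRCm38.p6, are shown because each is a product of a transcript whose level is reported below. Capitals mark the seed, bases 2 to 8, with which a microRNA recognizes its targets. No 2 of the 6 seeds are the same. The microRNAs themselves were not measured in these poly(A) libraries.
mmu-miR-675-5p, in H19, chr7:142577112-142577133, minus strand: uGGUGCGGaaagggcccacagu
mmu-miR-675-3p, in H19, chr7:142577078-142577099, minus strand: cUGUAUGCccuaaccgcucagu
mmu-miR-335-5p, in Mest, chr6:30741314-30741336, plus strand: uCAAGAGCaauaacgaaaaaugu
mmu-miR-335-3p, in Mest, chr6:30741354-30741375, plus strand: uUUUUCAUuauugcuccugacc
mmu-miR-483-5p, in Igf2, chr7:142654968-142654989, minus strand: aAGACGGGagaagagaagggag
mmu-miR-483-3p, in Igf2, chr7:142654932-142654952, minus strand: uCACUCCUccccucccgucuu

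Promoter sequences of 300 bases, 250 before and 50 after a RefSeq start site on GRCm38.p6, were at hand for 9 of the 11 genes, with 16 start sites in all. 4 are shown. Those of the neighbors Peg3 and Zim1 begin transcripts of opposite parental origin, and those of Meg3 show how 2 start sites of a gene can differ. Capitals mark CpG dinucleotides, the sites at which imprints are methylated. The first Meg3 start site had 13 CpGs and the other had 1.
Peg3, chr7:6730370-6730669, minus strand: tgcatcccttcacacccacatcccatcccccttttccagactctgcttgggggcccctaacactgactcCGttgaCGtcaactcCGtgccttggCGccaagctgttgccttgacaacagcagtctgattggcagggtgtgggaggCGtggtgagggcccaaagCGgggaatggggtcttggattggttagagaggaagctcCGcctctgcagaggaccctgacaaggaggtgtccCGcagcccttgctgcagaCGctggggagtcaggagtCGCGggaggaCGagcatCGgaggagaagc
Zim1, chr7:6696383-6696682, minus strand: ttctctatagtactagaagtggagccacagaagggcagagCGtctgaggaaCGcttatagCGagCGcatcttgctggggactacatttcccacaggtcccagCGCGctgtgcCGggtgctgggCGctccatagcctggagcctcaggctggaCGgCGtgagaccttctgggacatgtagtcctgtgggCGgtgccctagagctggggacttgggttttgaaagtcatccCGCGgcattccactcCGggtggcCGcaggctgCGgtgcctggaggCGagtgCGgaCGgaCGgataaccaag
Meg3 first start site, chr12:109540746-109541045, plus strand: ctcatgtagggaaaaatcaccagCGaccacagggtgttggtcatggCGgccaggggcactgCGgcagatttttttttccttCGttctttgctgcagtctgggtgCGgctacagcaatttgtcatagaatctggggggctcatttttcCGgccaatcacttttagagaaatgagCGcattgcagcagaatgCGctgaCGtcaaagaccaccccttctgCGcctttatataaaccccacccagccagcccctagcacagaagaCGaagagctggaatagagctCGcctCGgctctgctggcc
Meg3 other start site, chr12:109545148-109545447, plus strand: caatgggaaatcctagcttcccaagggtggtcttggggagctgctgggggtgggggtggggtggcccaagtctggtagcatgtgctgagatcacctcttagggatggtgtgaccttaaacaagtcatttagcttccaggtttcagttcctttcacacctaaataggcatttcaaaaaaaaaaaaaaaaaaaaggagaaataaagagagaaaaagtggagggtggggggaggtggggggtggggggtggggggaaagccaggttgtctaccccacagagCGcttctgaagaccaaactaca

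The median promoter of all 32851 in the set had 7 CpGs. Peg3 had 13 and Zim1 had 20, and the richest among the 11 genes was the first Grb10 start site with 45, a number that 1.93% of all promoters reach. The letters GGGGCCCC, a palindrome known as a binding sequence of Plagl1 and so the same on both strands, occurred in 1 of the 16 promoters, that of Peg3, and in 1.08% of all promoters. Such a match is a description of the letters and not a binding site.

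Counted reads on genes ran from 19845923 to 33137609 per tumor. They made up 88.4% to 89.4% of mapped reads in the no-dox group, 82.2% to 87.1% in the plus-dox group and 81.1% to 85.8% in the off-dox group, so this share and the absence of dox cannot be told apart. Trp53 was read at 40.1 to 57.4 RPKM in all 12 tumors. Its means were 47.7 ± 7.27 (SD, n = 4) in no-dox, 48.5 ± 6.44 in plus-dox and 44.0 ± 1.72 RPKM in off-dox tumors, so no rise with dox was seen. Its reads cannot separate the transgene from the endogenous gene, and host cells are counted with the tumor cells. In KCip53 lines, the paper reports that only mutant p53 DNA was found and that the wild-type sequence was lost. The Trp53 reads were not used here to check the labels. On the first principal component of 14586 genes, which held 49.8% of the variance, plus-dox tumor 2 and off-dox tumor 4 stood apart from the rest. Epcam, an epithelial marker, was at 7.76 RPKM in plus-dox tumor 2 and 40.9 in off-dox tumor 4, against 72.3 to 388 in the other tumors. The 12 epithelial markers together were at 1080 to 3140 RPKM, and Krt8 was at 318 RPKM or more in each tumor. Both of these lowest values were those of off-dox tumor 3. Plus-dox tumor 2 and off-dox tumor 4 had sums of 1370 and 1570 RPKM and Krt8 at 532 and 525 RPKM. Xist, the RNA that silences an X chromosome in female cells, was at 4.25 and 4.89 RPKM in plus-dox tumors 3 and 4 and at most 0.0485 in the other 10, while the Y-linked gene Ddx3y was at 16.9 to 21.5 RPKM in all 12 tumors. Results that rest on these tumors are given with and without them.

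H19 was the most abundant member and the most uneven among those with a mean RPKM over 0.25, a limit taken from the study. RPKM is a read count scaled to the exonic length of a gene model and to the mapped reads of the library. A comparison between genes therefore depends on the gene model. H19 was at 32.3, 37.6, 13.5 and 28.4 RPKM in no-dox tumors 1 to 4, at 19.9, 12.9, 18.9 and 29.3 in plus-dox tumors, and at 64.2, 28.8, 105.6 and 8.37 in off-dox tumors. The highest and the lowest of the 12 values both belonged to the off-dox group, and all 3 groups overlapped. The group means were 27.9 ± 10.3 (SD, n = 4), 20.3 ± 6.78 and 51.7 ± 42.7 RPKM in the same order. Off-dox tumors 3 and 1 had the highest levels.

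The second non-coding RNA, Meg3, is a maternally expressed transcript with growth-restraining activity in cultured cells. Meg3 was at 2.36, 1.35, 2.50 and 0.731 RPKM in no-dox tumors, 2.97, 5.66, 3.55 and 3.14 in plus-dox tumors, and at 1.14, 4.54, 5.05 and 3.65 in off-dox tumors. The lowest plus-dox value exceeded the highest no-dox value, and off-dox tumor 1 lay within the no-dox range while the other 3 lay above it. Means were 1.74 ± 0.843 (SD, n = 4) in no-dox, 3.83 ± 1.24 in plus-dox and 3.60 ± 1.74 RPKM in off-dox tumors.

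Rian and Mirg, the 2 non-coding transcripts that follow Meg3 on the same strand and are also maternally expressed, varied with it. Rian was at 3.47 to 13.6 RPKM in no-dox, at least 9.74 in plus-dox and 3.91 to 17.8 in off-dox tumors, and its lowest off-dox value was again that of tumor 1. Over the 12 tumors, log2 CPM of Meg3 had a Pearson r of 0.958 (Spearman rho 0.902) with that of Rian and of 0.90 (rho 0.867) with that of Mirg. The r with Rian was 0.948 without plus-dox tumor 2 and off-dox tumor 4. Here and below CPM is a count scaled to the total counted on genes in a library, and a correlation between 2 genes over these tumors, which share a cell line and bulk composition, is a description without a test. Dlk1, the paternally expressed neighbor on the other side of Meg3, had an r of 0.185 with Meg3 (rho 0.0769), and 0.743 on deviations from the group means.

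**Figure D1:**
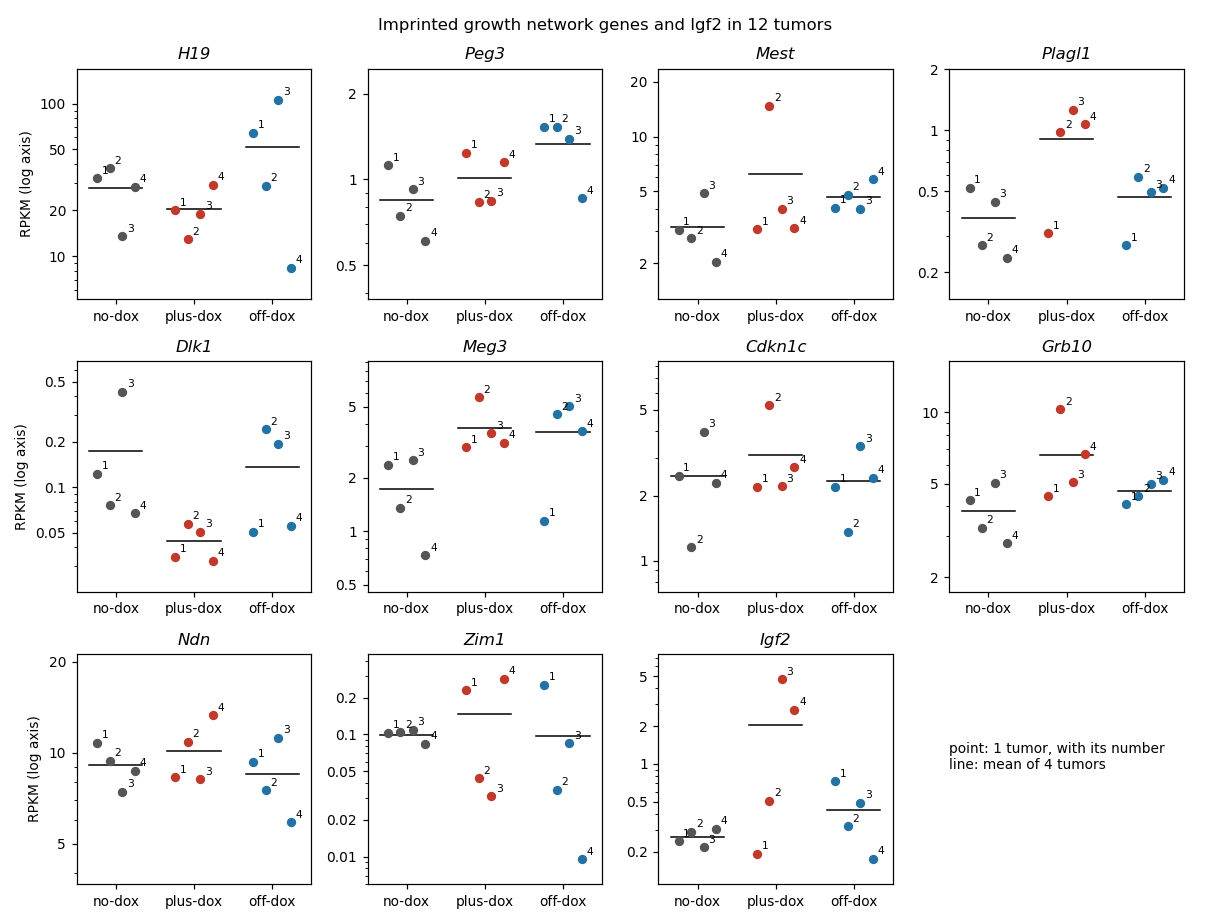
RPKM on a log axis for the 10 genes and Igf2, 1 panel per gene, with each point a tumor marked by its number and each line the mean of the 4 tumors of a group. H19 spans 8.37 to 105.6 RPKM within the off-dox group, Meg3 lies higher in all 4 plus-dox tumors than in any no-dox tumor, and Mest and Grb10 are highest in plus-dox tumor 2.

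The paternally expressed members were low to moderate in level. Ndn, which encodes the growth-suppressing protein necdin, was the second most abundant member by RPKM and, among those over the RPKM limit, the least variable. Its levels were 10.8, 9.40, 7.43 and 8.71 RPKM in no-dox, 8.30, 10.9, 8.17 and 13.3 in plus-dox and 9.35, 7.51, 11.2 and 5.88 in off-dox tumors. The 3 groups overlapped, with means of 9.08 ± 1.39, 10.2 ± 2.44 and 8.49 ± 2.30 RPKM (SD, n = 4 each).

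Mest encodes a protein of the alpha/beta hydrolase fold that is abundant in embryonic mesoderm. It was at 3.06, 2.75, 4.88 and 2.04 RPKM in no-dox, at 3.08, 14.8, 4.01 and 3.12 in plus-dox and at 4.05, 4.78, 3.99 and 5.83 in off-dox tumors. Plus-dox tumor 2 alone set the plus-dox mean of 6.25 ± 5.71 RPKM (SD, n = 4) apart from that of no-dox tumors, 3.18 ± 1.21, since the other 3 plus-dox tumors lay within the no-dox range. The 2 highest values of all were those of plus-dox tumor 2 and off-dox tumor 4, the tumors with the lowest Epcam.

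Plagl1, the zinc finger factor, was at 0.521, 0.271, 0.443 and 0.236 RPKM in no-dox, at 0.311, 0.979, 1.26 and 1.07 in plus-dox and at 0.271, 0.589, 0.495 and 0.520 in off-dox tumors. 3 of the 4 plus-dox tumors lay above all others, and plus-dox tumor 1 lay within the no-dox range. Peg3, a zinc finger protein linked to growth and maternal behavior, was at 1.12, 0.747, 0.924 and 0.610 RPKM in no-dox, at 1.24, 0.831, 0.841 and 1.15 in plus-dox and at 1.53, 1.53, 1.39 and 0.859 in off-dox tumors. Off-dox tumors 1 to 3 were the highest of all 12 in Peg3, and off-dox tumor 4 fell inside both other groups.

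Dlk1, a transmembrane protein of the Notch ligand family that marks immature cells, was close to the limit of detection. It had 20, 11, 59 and 12 counts in no-dox, 4, 9, 9 and 4 in plus-dox and 6, 28, 24 and 8 in off-dox tumors. Each of the plus-dox tumors, at 0.0327 to 0.0571 RPKM, lay below each of the no-dox tumors, at 0.0673 to 0.426. The gap is narrow against counting error, since the exact 95% Poisson interval of the 9 counts in plus-dox tumor 2 ran from 4.12 to 17.1 and that of the 12 counts in no-dox tumor 4, the lowest of its group in RPKM, from 6.20 to 20.96. Such an interval covers counting error only.

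The maternally expressed protein-coding members include 2 brakes on growth. Grb10, an adaptor that restrains insulin and IGF receptor signaling, was at 4.25, 3.25, 5.03 and 2.79 RPKM in no-dox, at 4.42, 10.3, 5.06 and 6.66 in plus-dox and at 4.09, 4.42, 4.99 and 5.17 in off-dox tumors. Plus-dox tumor 1 was the only plus-dox tumor inside the no-dox range, and the off-dox tumors were close together, with a mean of 4.67 ± 0.499 RPKM (SD, n = 4). Cdkn1c, which encodes the cell cycle inhibitor p57, was at 2.47, 1.16, 3.97 and 2.29 RPKM in no-dox, at 2.20, 5.24, 2.21 and 2.71 in plus-dox and at 2.20, 1.36, 3.38 and 2.42 in off-dox tumors. Its 3 groups overlapped, and its highest value was again that of plus-dox tumor 2.

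Zim1, a zinc finger gene next to Peg3, was the lowest member. It had 12, 11, 11 and 11 counts in no-dox, 19, 5, 4 and 25 in plus-dox and 22, 3, 8 and 1 in off-dox tumors, after rounding. The no-dox tumors were alike while the other groups each held tumors above and below them. The single count of off-dox tumor 4 has an exact 95% Poisson interval of 0.0253 to 5.57 counts, so this tumor is not distinguishable at this depth from those with 3 to 5 counts.

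Ordered by mean RPKM over the 12 tumors, the genes ran H19 (33.3), Ndn (9.25), Grb10 (5.04), Mest (4.70), Meg3 (3.05), Cdkn1c (2.63), Peg3 (1.06), Igf2 (0.908), Plagl1 (0.581), Dlk1 (0.117) and Zim1 (0.115). The ranges of all neighbors in this order overlapped across tumors. Compared within each tumor, H19 exceeded Ndn, Ndn exceeded Grb10 and Plagl1 exceeded Dlk1 in 12 of 12 tumors. Grb10 exceeded Mest in 9, Mest exceeded Meg3 in 10 and Meg3 exceeded Cdkn1c in 8 tumors, so these levels were close in RPKM. The order depends on the exonic length of each gene model, which was 12732 bp for Meg3. In total counts Meg3, with 13540, was above Grb10 with 9179 and Ndn with 5375. Igf2 exceeded Plagl1 in 5 of 12 tumors, and Dlk1 exceeded Zim1 in 7.

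Most members varied more between tumors than a typical gene. The SD of log2 CPM over the 12 tumors was 0.99 for H19, higher than for 94.0% of the 14586 genes past the RPKM limit. It was 0.91 for Meg3, 0.80 for Plagl1, 0.73 for Mest, 0.60 for Cdkn1c, 0.48 for Grb10, 0.41 for Peg3 and 0.29 for Ndn. The median of the 8 members over the limit was 0.66, beside 0.27 over all genes. Those genes were not matched to the members on level, and the members ran from percentile 7.36 of mean RPKM for Plagl1 to 85.0 for H19. The members were also chosen with earlier results of these data known, so their spread is a description. Dlk1 and Zim1 did not reach the limit. For Igf2 the SD was 1.47, which was part of what drew attention to the genes.

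Igf2 was at 0.242, 0.289, 0.218 and 0.306 RPKM in no-dox, at 0.192, 0.509, 4.71 and 2.71 in plus-dox and at 0.728, 0.320, 0.489 and 0.177 in off-dox tumors. Plus-dox tumors 3 and 4 held 717 and 285 of its 1413 counts. They are the same 2 tumors that had Xist reads, with 2495 and 1982 Xist counts against 2 to 19 in the others. Plus-dox tumor 1 had a lower Igf2 value than any no-dox tumor, but by less than counting error. Its 19 counts had an exact 95% Poisson interval of 11.4 to 29.7, and the 26 counts of no-dox tumor 3 had 17.0 to 38.1.

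In plus-dox tumors 3 and 4, H19 was at 18.9 and 29.3 RPKM, inside the no-dox range of 13.5 to 37.6, so the enhancer-sharing neighbor of Igf2 was not raised in either. The ratio of H19 to Igf2 RPKM was 133, 130, 61.8 and 92.5 in no-dox tumors and 88.2, 90.2, 216 and 47.2 in off-dox tumors. In plus-dox tumors it was 104, 25.3, 4.02 and 10.8. H19 thus exceeded Igf2 in every tumor, by the least where Igf2 was highest. Off-dox tumors 1 and 3, the highest in H19, had 74 and 52 Igf2 counts. Over 12 tumors the r of H19 with Igf2 in log2 CPM was 0.154 (rho 0.315), and it was 0.603 in the 10 tumors without plus-dox tumors 3 and 4.

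**Figure D2:**
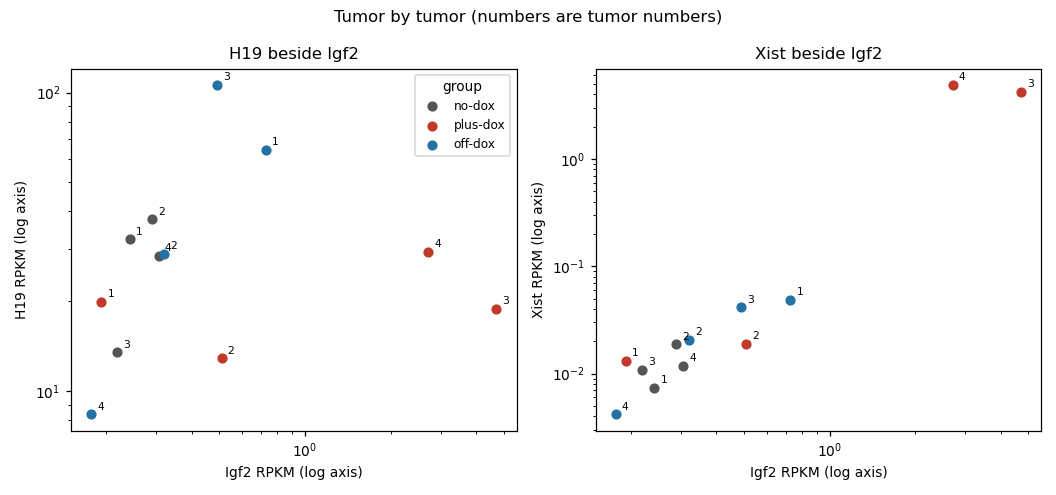
Left, H19 against Igf2, and right, Xist against Igf2, in RPKM on log axes, each point a tumor colored by group and marked by its number. Plus-dox tumors 3 and 4 stand apart in Igf2 and Xist while their H19, 18.9 and 29.3 RPKM, lies among that of the other tumors.

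Of the other members, Plagl1 was the only one whose 2 highest tumors were the Igf2-rich pair, at 1.26 and 1.07 RPKM. Its r with Igf2 was 0.672 (rho 0.448) over 12 tumors and 0.0805 without that pair, so the relation rests on them. Plus-dox tumor 2 had nearly as much Plagl1, 0.979 RPKM, with 0.509 RPKM of Igf2. The r of Igf2 with Ndn was 0.466, with Grb10 0.327, with Meg3 0.161, with Cdkn1c 0.0851, with Peg3 0.0547 and with Mest 0.014. Ndn was highest of all in plus-dox tumor 4, at 13.3 RPKM, but was at 8.17 in plus-dox tumor 3. Meg3 and Grb10 in the pair lay within the range of the other 2 plus-dox tumors. Igf2as, the antisense transcript of Igf2, had at most 6 counts in any tumor, but the libraries do not mark strand, so reads of the 2 genes cannot be told apart where they overlap.

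The comparison of plus-dox with no-dox tumors asks what differs while dox, which switches on mutant p53, is given. It contains the Igf2 rise for which these genes were chosen, so its values are given as a description. Fold changes come from edgeR's quasi-likelihood fit of all 12 tumors and 17561 genes, and a positive log2 value means higher in the group named first. Igf2 had a log2 fold change of 2.98 ± 0.81 (SE), which was 2.07 without plus-dox tumor 3 and 0.42 without plus-dox tumors 3 and 4. Plagl1 followed with 1.33 ± 0.43, which was 0.83 without the same 2 tumors. Meg3 had 1.16 ± 0.46, Mest 0.99 ± 0.49 and Grb10 0.80 ± 0.26. Without plus-dox tumor 2, Mest had 0.11, Grb10 0.49 and Meg3 0.91.

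On the other side, Dlk1 had a log2 fold change of -1.93 ± 0.71 (SE) in plus-dox against no-dox tumors, which was -0.94 without no-dox tumor 3, and H19 had -0.45 ± 0.57. Zim1 had 0.49 ± 0.81, Cdkn1c 0.32 ± 0.41, Peg3 0.26 ± 0.23 and Ndn 0.18 ± 0.20. Of these, Cdkn1c had -0.07 without plus-dox tumor 2 and Zim1 -0.05 without plus-dox tumor 4. Thus 8 of 10 members had a positive sign, with a median of 0.41 beside 0.01 over all genes tested. 4 members were more than 1.5-fold higher, where 13.3% of all genes were, and 1 was more than 1.5-fold lower, where 6.38% were. 1 member, Meg3, was higher in every plus-dox than in every no-dox tumor, where 4.37% of genes were, and 1, Dlk1, lower, where 4.49% were. A call here follows the limits of the study. The adjusted p had to be under 0.1 and the change over 1.5-fold, for a gene longer than 250 bp with a mean RPKM over 0.25. 0 of 10 members were called by edgeR, beside 0.0% of all genes. DESeq2 called 0 members too, beside 0.729% of genes without and 0.512% with moderated fold changes. 4 members had an unadjusted edgeR p under 0.05, beside 13.7% of genes. These counts come from the comparison by which the genes were chosen and support nothing about them.

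The comparison of off-dox with no-dox tumors asks what remains 3 days after dox was withdrawn. 0 of 10 members were called by edgeR, beside 1.34% of all genes, and 2 members, Peg3 and Meg3, had an unadjusted p under 0.05, beside 20.4% of genes. By DESeq2 without moderated fold changes 1 member, Peg3, was called, beside 3.5% of genes, and with moderated fold changes 0 were, beside 2.25%. Peg3 had a log2 fold change of 0.67 ± 0.23 (SE; edgeR adjusted p = 0.146). It was higher in 3 of 4 off-dox tumors than in any no-dox tumor, and was called when off-dox tumor 4 was left out together with plus-dox tumor 2 (0.82, edgeR adjusted p = 0.077). Meg3 had 1.09 ± 0.46 (edgeR adjusted p = 0.21), and it was called when off-dox tumor 1 was left out (1.38, edgeR adjusted p = 0.063). Each of these fits left out the off-dox tumor that was lowest in the gene called. Of all 17561 genes, 457 were called in the fit that called Peg3 and 789 in that for Meg3, beside 235 with all tumors. H19 had 0.91 ± 0.57 (edgeR adjusted p = 0.381), which was 0.30 without off-dox tumor 3.

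The other members differed by less than their errors or little more in off-dox against no-dox tumors. Mest had a log2 fold change of 0.58 ± 0.48 (SE), Plagl1 0.39 ± 0.42 and Grb10 0.32 ± 0.26, while Dlk1 had -0.34 ± 0.66, Ndn -0.07 ± 0.20, Cdkn1c -0.06 ± 0.41 and Zim1 -0.03 ± 0.82. Igf2 had 0.71 ± 0.79. The median over the 10 members was 0.35, beside 0.01 over all genes tested. 3 members were more than 1.5-fold higher, beside 14.1% of genes, and 0 more than 1.5-fold lower, beside 7.72%. In 0 members did the groups separate fully, beside 11.5% of genes.

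The comparison of off-dox with plus-dox tumors asks what reverts on withdrawal. 0 of 10 members were called by edgeR, beside 0.0% of genes. DESeq2 called 0 members as well, beside 0.0342% of genes without and 0.0228% with moderated fold changes. Every member had an edgeR adjusted p of 1. 3 members, H19, Plagl1 and Dlk1, had an unadjusted p under 0.05, beside 3.06% of genes. The plus-dox tumors used here hold the Igf2 rise by which the genes were chosen. The counts of this comparison therefore support nothing about the members. H19 had a log2 fold change of 1.36 ± 0.58 (SE), Dlk1 1.58 ± 0.72 and Plagl1 -0.94 ± 0.42. Peg3 had 0.41 ± 0.23, Grb10 -0.48 ± 0.26, Mest -0.41 ± 0.48, Cdkn1c -0.38 ± 0.41, Ndn -0.24 ± 0.20, Zim1 -0.53 ± 0.82 and Meg3 -0.08 ± 0.45. Meg3 was therefore at a like mean level in plus-dox and off-dox tumors, although the error leaves room for a difference in either direction. Igf2 had -2.27 ± 0.79, and 0.29 without plus-dox tumors 3 and 4. 2 members were more than 1.5-fold higher, beside 6.26% of genes, and 1 more than 1.5-fold lower, beside 6.45%. In 0 members did the groups separate fully, beside 1.4% of genes. This comparison and the first share the plus-dox tumors, and the second shares the no-dox tumors with the first, so the signs of the 3 are not independent.

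**Figure D3:**
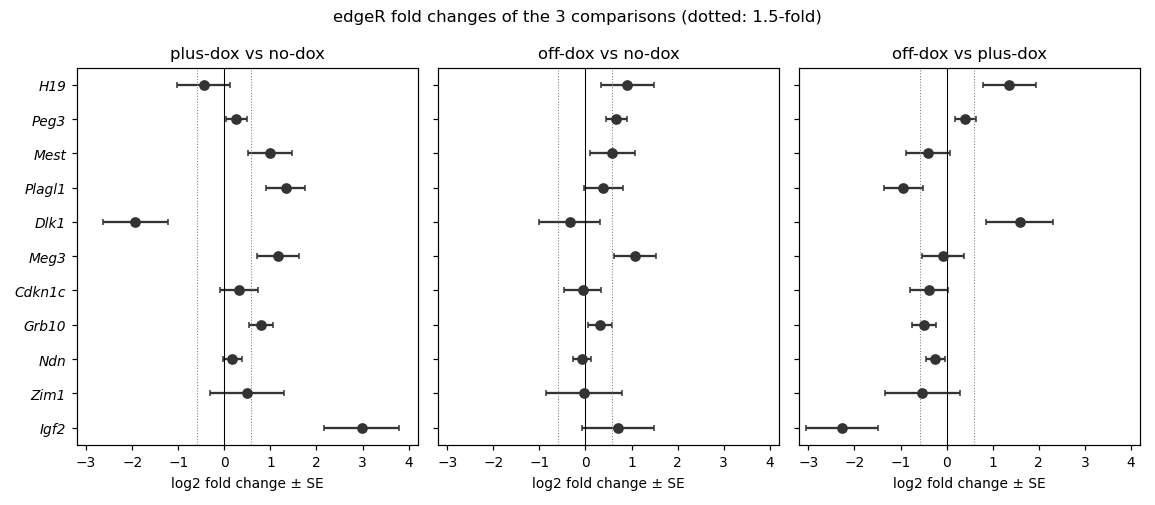
Log2 fold change with its standard error for the 10 genes and Igf2 in each of the 3 comparisons, from edgeR, 4 tumors per group, with dotted lines at 1.5-fold. In plus-dox against no-dox tumors Igf2 lies at 2.98 and Dlk1 at -1.93. In off-dox against plus-dox tumors H19 and Dlk1 lie above 0 and Igf2 and Plagl1 below it.

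The members did not rise and fall as a single block. Over the 28 pairs of the 8 members with a mean RPKM over 0.25, r of log2 CPM ranged from -0.447 to 0.847 with a median of 0.278. Mest, Grb10, Meg3, Plagl1 and Cdkn1c formed a group of positively related genes. Mest and Grb10 had an r of 0.847 (rho 0.783), which was 0.608 without plus-dox tumor 2 and off-dox tumor 4. Plagl1 and Grb10 had an r of 0.78 (rho 0.811), and 0.81 without those tumors. Meg3 and Grb10 had 0.771 (rho 0.769) and 0.761, and Cdkn1c and Grb10 0.711 (rho 0.636) and 0.511. H19 stood outside that group, with an r of -0.447 (rho -0.566) with Mest and of -0.40 (rho -0.615) with Grb10, which were -0.0345 and -0.125 without the same 2 tumors.

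**Figure D4:**
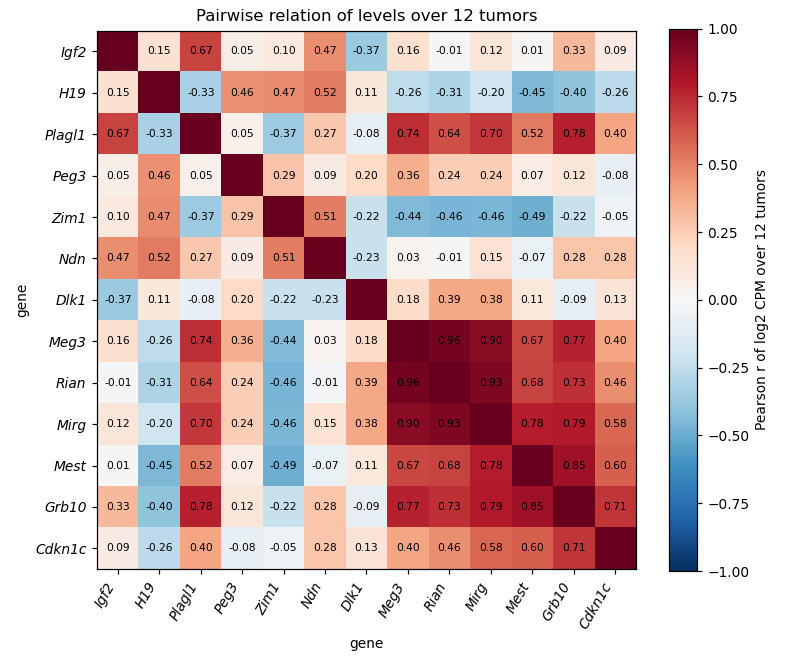
Pearson r of log2 CPM over the 12 tumors for each pair among Igf2, the 10 genes and the Meg3 neighbors Rian and Mirg. Meg3, Rian and Mirg have r between 0.90 and 0.958, Mest and Grb10 have 0.847, and H19 has negative values with both of these.

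Since RNA came from whole tumors, members were set beside markers of the cell types that a tumor can hold. In such RNA, fewer cells of a type and less RNA per cell cannot be told apart. Relations of the 8 expressed members with 5 marker lists, 40 in all, were tested over the 12 tumors. The lists were those of epithelium, fibroblasts, skeletal muscle, developing muscle and adipocytes. Endothelial, macrophage and keratinocyte markers were not tested in this way. A two-sided permutation test with 100000 resamples was used, and p was adjusted over the 40. Of the 40, 11 had an adjusted p under 0.1 for Pearson's r, and 5 did on deviations from the group means. In 10 tumors without the 2 farthest from the median of each list, 0 did. The 12 tumors hold the Igf2 rise by which the genes were chosen, and the lists were chosen with earlier results of these data known. These relations and their p are therefore a description and support nothing about the members.

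Of the 40 relations tested, that of Grb10 with fibroblast markers had the largest r over the 12 tumors. The r was 0.889 (permutation p = 0.00013, adjusted p = 0.0052) and rho 0.797 (permutation p = 0.00289, adjusted p = 0.0987). The r was 0.899 on deviations from the group means (adjusted p = 0.0012) and 0.787 in 10 tumors without plus-dox tumors 2 and 3 (adjusted p = 0.134). All 13 fibroblast markers were over 0.25 RPKM on average, and their summed level was 1390 to 2270 RPKM in no-dox, 1830 to 3470 in plus-dox and 1530 to 1990 in off-dox tumors. The defining markers Col1a1 and Pdgfra were at 0 in none of the tumors. Mest had an r of 0.813 with the list (rho 0.622, adjusted p for r 0.0564), Plagl1 0.752 (rho 0.762, adjusted p 0.0564) and Cdkn1c 0.65 (rho 0.503, adjusted p 0.0888) by the same permutation test. Without plus-dox tumors 2 and 3, these r were 0.592, 0.609 and 0.489. On deviations from the group means, the adjusted permutation p for r was 0.0012 for Mest and 0.127 for both Plagl1 and Cdkn1c. For rho over the 12 tumors it was 0.172 for Mest, 0.0987 for Plagl1 and 0.263 for Cdkn1c. H19 ran opposite to the fibroblast list, with an r of -0.587 (adjusted permutation p 0.13) and a rho of -0.727 (adjusted permutation p 0.0987). Its r was -0.55 without plus-dox tumors 2 and 3. What part fibroblasts have in these levels was not tested.

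Mest, Grb10 and Cdkn1c, but not Plagl1, ran opposite to the epithelial markers past the adjusted limit for r. For rho none of them passed, with adjusted permutation p of 0.263, 0.263 and 0.172. The epithelial markers summed to 2330 to 3140 RPKM in no-dox, 1370 to 2060 in plus-dox and 1080 to 2690 in off-dox tumors. Mest had an r of -0.80 (rho -0.538), Grb10 of -0.725 (rho -0.517) and Cdkn1c of -0.704 (rho -0.65). The adjusted permutation p for r was 0.0572, 0.07 and 0.07. Plagl1 had an r of -0.29 (rho -0.238, adjusted permutation p 0.585). Without plus-dox tumor 2 and off-dox tumor 4, the r of Mest was -0.203, that of Grb10 -0.267 and that of Cdkn1c -0.562. The relations of Mest and Grb10 therefore rest on the tumors with little Epcam.

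Meg3 ran with skeletal muscle markers, at an r of 0.698 (rho 0.727, adjusted permutation p for r 0.07), and 0.833 without no-dox tumor 4 and off-dox tumor 4. The 13 muscle markers summed to 30.4 to 256 RPKM in no-dox, 206 to 707 in plus-dox and 76.7 to 1590 in off-dox tumors, and the defining markers Acta1 and Ckm were detected in all 12. Peg3 had an r of 0.651 with the same list (rho 0.573, adjusted permutation p 0.0888) and of 0.661 with markers of developing muscle (rho 0.629, 0.074), which were 0.463 and 0.446 without the 2 farthest tumors. H19, which is abundant in developing muscle, had an r of 0.666 with the latter (rho 0.552, 0.0866), which was 0.265 without off-dox tumors 1 and 3. The adjusted p given for these 4 muscle relations are for r. For rho it was 0.0987 for Meg3, 0.251 and 0.172 for Peg3 and 0.263 for H19, by permutation. On deviations from the group means, none of these 4 muscle relations passed, with adjusted permutation p of 0.127 to 0.129. Only 2 of the 12 developing muscle markers were over 0.25 RPKM on average, and they summed to 1.25 to 2.44 RPKM in no-dox, 1.34 to 2.08 in plus-dox and up to 11.8 in off-dox tumors. Of the defining pair, Pax7 was at 0 to 0.0254 RPKM and Myog was at 1.54 in off-dox tumor 1 and at most 0.235 in the others. Whether muscle has a part in the H19, Meg3 or Peg3 levels was not tested.

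**Figure D5:**
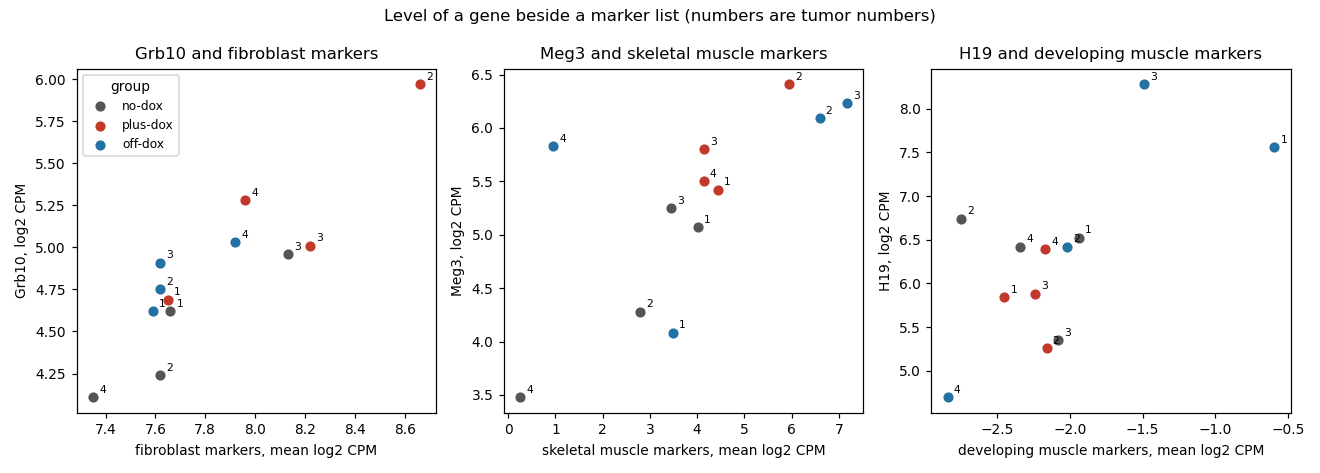
Log2 CPM of Grb10, Meg3 and H19 against the mean log2 CPM of fibroblast, skeletal muscle and developing muscle markers, each point a tumor colored by group and marked by its number. Grb10 rises with fibroblast markers with plus-dox tumor 2 highest in both, Meg3 rises with muscle markers apart from off-dox tumor 4, and off-dox tumors 1 and 3 are highest in H19 and in developing muscle markers.

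For each expressed gene, the 3 genes with the highest r of log2 CPM over the 12 tumors were found among all genes with a mean RPKM over 0.25. For Grb10 they were Calcrl, a receptor of endothelial cells, Nfatc4 and Maoa (r 0.965, 0.955 and 0.95), and for Mest they were Gimap6, Slc4a8 and Gpr137b (0.973, 0.964 and 0.958). Calcrl was at 4.90 RPKM and Gimap6 at 10.9 in plus-dox tumor 2, the highest of 12 in each case, and the summed level of 8 endothelial markers was 138 RPKM there against 32.8 to 60.9 in the other tumors. For Meg3 they were Rian, Gimap8 and Klra7 (0.958, 0.947 and 0.946). For H19 they were Tnfrsf11a, Blnk and Plekhb1 (0.925, 0.921 and 0.91), and the r of Tnfrsf11a was 0.891 without plus-dox tumor 2 and off-dox tumor 4.

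For Igf2 the genes most alike were Xist, Mal2 and Ppef1 (r 0.965, 0.945 and 0.851). Mal2, a membrane trafficking protein of epithelial cells, was at 13.9 and 21.2 RPKM in plus-dox tumors 3 and 4 and at most 0.572 in the other 10. Without these 2 tumors the r with Igf2 was 0.87 for Xist, where 2 to 19 counts remained, 0.73 for Mal2 and 0.269 for Ppef1. For Plagl1 the genes were Pcdhga11, Heg1 and Atp8b1 (0.896, 0.891 and 0.879), for Cdkn1c Sgcd, Epor and Map1lc3a (0.948, 0.907 and 0.906), for Peg3 B930003M22Rik, Zfp709 and Snora61 (0.943, 0.932 and 0.878) and for Ndn 1700092M07Rik, Tiam1 and Efs (0.911, 0.871 and 0.844).

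Other imprinted genes were read from a list of 45, of which 44 were in the tables, 40 were tested and 32 had a mean RPKM over 0.25. Cd81, a tetraspanin, was the most abundant, at a mean of 204 RPKM, followed by the matrix proteoglycan Dcn (114), the G protein gene Gnas (84.3), the creatine synthesis enzyme Gatm (71.8) and Commd1 (62.3). In off-dox against no-dox tumors, 3 of the 40 rose and 0 fell by edgeR, beside 1.03% of all genes rising and 0.307% falling. They were Gatm, Kcnq1ot1 and Ppp1r9a. DESeq2 without moderated fold changes called 3 higher and 2 lower, the same 3 together with Cd81 and Kcnq1, beside 3.5% of all genes. With moderated fold changes it called 2 higher and 1 lower, Kcnq1ot1, Ppp1r9a and Kcnq1, beside 2.25%. At an unadjusted edgeR p under 0.05 there were 8 of the 40, beside 20.4% of genes. In plus-dox against no-dox and in off-dox against plus-dox tumors 0 of the 40 were called by edgeR, beside 0.0% of all genes in each. An unadjusted edgeR p under 0.05 was seen for 5 and 3 of the 40, beside 13.7% and 3.06% of genes. DESeq2 called 1 of the 40, Kcnq1ot1, in the former and 0 in the latter, with and without moderated fold changes. The shares over all genes were 0.729% and 0.0342% without moderated fold changes, and 0.512% and 0.0228% with them.

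Kcnq1ot1 is the paternally expressed non-coding RNA that silences the domain in which Cdkn1c lies. It was at 0.483, 0.507, 0.405 and 0.450 RPKM in no-dox, at 0.581, 0.726, 1.22 and 0.978 in plus-dox and at 0.808, 1.01, 1.01 and 0.959 in off-dox tumors. Each tumor of the other 2 groups lay above each no-dox tumor. Its log2 fold change in off-dox against no-dox tumors was 1.07 ± 0.20 (SE; edgeR adjusted p = 0.0786), and Cdkn1c had -0.06 ± 0.41. Kcnq1ot1 lies within an intron of Kcnq1 on the opposite strand, so without strand its reads may include unspliced Kcnq1. Kcnq1 itself, a potassium channel gene named after its values were seen, was at 18.5 to 37.5 RPKM in no-dox and 4.45 to 26.8 in off-dox tumors, with a log2 fold change of -1.08 ± 0.44 (SE; edgeR adjusted p = 0.197). Gatm had 0.63 ± 0.14 (edgeR adjusted p = 0.0832), with 50.3 to 67.2 RPKM in no-dox and 73.8 to 109 in off-dox tumors. Ppp1r9a, a neuronal actin-binding protein, had 1.17 ± 0.26 (edgeR adjusted p = 0.0832), with 0.181 to 0.349 and 0.369 to 0.754 RPKM. All 3 calls were lost without any 1 of the 4 no-dox tumors, off-dox tumors 2, 3 and 4 or plus-dox tumor 4, when 0 or 1 of all genes were called. They were also lost without a filter on low counts or with the replicate number as a block, when 0 genes were called.

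16 genes of IGF signaling were read, which include the receptors, the receptor substrates and the binding proteins through which Igf2 and Grb10 act. With all tumors, 0 of them were called in any comparison by edgeR or DESeq2. Over all genes, edgeR called 0.0% in plus-dox against no-dox, 1.34% in off-dox against no-dox and 0.0% in off-dox against plus-dox tumors. In the same order DESeq2 called 0.729%, 3.5% and 0.0342% without moderated fold changes, and 0.512%, 2.25% and 0.0228% with them. Without off-dox tumor 1, edgeR called 1 of the 16, Igf2bp1, higher in off-dox against no-dox tumors, where it called 789 of all genes. With all tumors, an unadjusted edgeR p under 0.05 was seen for 2, 3 and 0 of the 16 in the same order. The shares of all genes were 13.7%, 20.4% and 3.06%, so these counts were near the background. The most abundant were the binding proteins Igfbp7, Igfbp3 and Igfbp4, at means of 440, 337 and 184 RPKM. Igf2r, the imprinted receptor that clears Igf2, was at 4.23 to 9.83 RPKM in the 12 tumors.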

How the data were processed

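RNA sequencing of 12 subcutaneous KCip53-1 tumors (4 no-dox, 4 plus-dox, 4 off-dox) was read from 1 table per tumor. A further allele of the line is not reported here. The authors mapped 50-bp single-end reads of unstranded poly(A) libraries to mm9 with TopHat (version 1.4.1) and Bowtie (0.12.8) and, with bedtools (2.16.2), counted them over the unambiguous exons of 1 RefSeq model per gene. The deposited expected counts are base-wise coverage in reads, not always whole, and the deposited RPKM values are scaled to exonic length and to mapped reads. How duplicate and multiply mapped reads were handled is not given in the sources used here.

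Counts were rounded and fitted with edgeR (version 4.0.16; TMM, quasi-likelihood test, 3 groups in 1 fit, 17561 genes with at least 10 counts in all), with Benjamini-Hochberg adjustment over all genes. Log2 CPM used TMM factors and a prior count of 2. All 10 members passed the count filter and 8 had a mean RPKM over 0.25. DESeq2 (1.42.0), RLE factors, other filters, fits of each pair of groups alone, a replicate block and leaving out each tumor were alternatives, and 2 settings that leave out 2 tumors each were added after seeing the data. The fit was tested on simulated data. No replicate pair agreed within sampling noise.

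All 10 members and Igf2 are named. Genes most alike are the 3 with the highest r. Of the other imprinted genes, those called and the 5 most abundant are named, and of the IGF genes the 3 most abundant, with Igf2r named after its values were seen. Igf2bp1 is named because it was called without off-dox tumor 1. The members, the lists and the marker genes were chosen with earlier results of these data known. Sequences are from RefSeq (GRCm38.p6), and coordinates of genes are those of the deposited mm9 tables. RNA of keratinocytes, macrophages and adipocytes was read from marker lists as well. Krt5, a keratinocyte marker, was at most 0.894 RPKM. Macrophage markers summed to 736 to 1240 RPKM, and adipocyte markers to 18.7 to 756 RPKM.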

Additional observations from a re-analysis of the deposited data

Results flagged for a closer look

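Among 33 groups of 4 tumors, that is the 10 genes and Igf2 in each of 3 groups, 3 held a tumor whose gap to the next exceeded Dixon's 95% limit, and chance gives about 1 in 20 groups. The 33 include the Igf2 values by which the genes were chosen. Among all 14586 genes past the RPKM limit of 0.25, the same gap was exceeded by 5.55% in the no-dox, 8.8% in the plus-dox and 6.18% in the off-dox group, and plus-dox tumor 2, which stands apart over all genes, was the tumor concerned for 6.42%. Mest was at 14.8 RPKM in plus-dox tumor 2, against 3.08 to 4.01 in the other plus-dox tumors. Cdkn1c was at 5.24 RPKM in the same tumor, against 2.20 to 2.71 in the others. Dlk1 was at 0.426 RPKM in no-dox tumor 3, against 0.0673 to 0.123 in the other no-dox tumors.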

How the results depend on the processing

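In plus-dox against no-dox and off-dox against plus-dox tumors, 0 of 10 members were called under every alternative run. In off-dox against no-dox tumors the count was 1 under DESeq2 without moderated fold changes (Peg3), 1 without plus-dox replicate 2 and off-dox replicate 4 (Peg3), and 0 to 1 with each tumor left out in turn (Meg3 without off-dox replicate 1), and 0 under the others. Requiring at least 10 counts in every tumor removed Dlk1 and Zim1. Of 40 marker relations, 11 passed with all tumors, 5 on deviations from the group means and 0 without the 2 farthest tumors, and 11 with a prior count of 0.5 or RLE factors.

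Some log2 fold changes, none of them called, changed sign. With 1 tumor left out in turn, off-dox against no-dox values ranged from -0.30 to 0.29 for Cdkn1c, -0.77 to 0.65 for Dlk1, -0.23 to 0.06 for Ndn and -1.14 to 0.35 for Zim1. Off-dox against plus-dox values ranged from -0.60 to 0.0050 for Cdkn1c, -0.27 to 0.22 for Meg3, -0.66 to 0.47 for Mest and -1.63 to 0.0086 for Zim1. Without plus-dox replicate 2 and off-dox replicate 4, the off-dox against no-dox values of Ndn and Zim1 were 0.065 and 0.36, and the off-dox against plus-dox values of Mest and Meg3 were 0.33 and 0.16. Without plus-dox replicates 3 and 4, Igf2 in off-dox against plus-dox tumors was at 0.29. Fewer samples enter each of these fits, and the cause was not tested further.

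Over all genes, the off-dox against no-dox count of 235 moved to 615 under DESeq2 without and 396 with moderated fold changes, and ranged from 0 to 789 with 1 tumor left out. In plus-dox against no-dox tumors DESeq2 called 128 and 90 genes where edgeR called 0. The replicate numbers did not pair the tumors. Deviations of tumors with the same number had a mean r of -0.0878 over 12 pairs, and those with different numbers 0.043 over 36. With the number entered as a replicate block, 0 members and 0 genes were called in any of the 3 comparisons. Depth limits Dlk1 and Zim1, with 4 to 59 and 1 to 25 counts per tumor.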
